A study of Mus musculus with 10 samples.

Results

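The genes described here are the colony-stimulating factor 1 receptor *Csf1r*, its ligands *Csf1* and *Il34*, and the microglial transcription factors *Spi1* (which encodes PU.1), *Irf8* and *Runx1*. They are 6 of the 53700 gene identifiers in the count files, chosen by symbol. All 6 passed the filter on low counts, as did 19268 genes in all. In the libraries labelled 5XFAD;Neu cKO (cKO-labelled libraries below), *Csf1r* was 36.1% lower than in the 5XFAD libraries, and it was the only gene of the 6 that passed the test across all genes. *Csf1r* did not pass when replicate 2 of the 5XFAD group was left out. *Il34* was slightly lower but did not pass that test. Its groups did not overlap in the scaled levels used here, but they overlapped when libraries were scaled by their totals alone. The levels of *Csf1*, *Irf8*, *Spi1* and *Runx1* overlapped between the groups.

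Cortical RNA was measured in 10 female mice aged 4 months, 5 per group. All 10 carried the 5XFAD transgenes, human genes with mutations of familial Alzheimer's disease that lead to amyloid plaques in the brain, so no library shows these genes without amyloid. Mice labelled 5XFAD;Neu cKO also carried *Camk2a-Cre* and floxed *Idol* (official symbol *Mylip*). The *Camk2a* promoter is active in forebrain excitatory neurons, so the deletion is meant for those neurons, whereas *Csf1r* and the transcription factors below are microglial genes and were not targeted. The control group was littermate 5XFAD mice, labelled Camk2a-cre WT. In its single-nucleus experiment the study calls such controls wild type for *Idol*, and whether the littermates used here carried floxed alleles without Cre is not given in the sources used here. Each library was made from tissue, so fewer cells of a type and less RNA per cell cannot be told apart in any value below.

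CSF1R is a receptor tyrosine kinase of microglia and macrophages, and adult microglia depend on its signal to survive. CSF1 and IL-34 share no clear similarity in sequence but bind the same receptor. In the adult cortex IL-34 comes mainly from neurons, and CSF1 largely from glia. PU.1, IRF8 and RUNX1 act in the myeloid lineage: PU.1 is needed for microglia to form and switches on *Csf1r*, IRF8 often binds DNA together with PU.1, and RUNX1 acts in blood formation and in developing microglia.

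The libraries held 4320504 to 7466192 counts on genes in the 5XFAD group and 5148499 to 7246659 in the cKO-labelled group, and mitochondrial genes took 20.9% to 25.2% and 20.2% to 24.7% of them. The targeted gene did not separate the groups. *Mylip* was at 14.8 ± 4.90 CPM (counts scaled to an equal library size; SD, n = 5) in the cKO-labelled libraries and at 11.2 ± 2.27 CPM in the 5XFAD libraries, and the values overlapped (log2 fold change 0.39, SE 0.25, adjusted p = 0.777). These counts thus do not show the lower level that the label would lead to. The study itself reports, by qPCR of cortex, significantly lower *Idol* mRNA in its neuronal knockout mice than in controls. Whether the mice sequenced here were among those measured by qPCR is not given in the sources used here. The sources used here do not state which stretch is deleted, and reads near the 3′ end check the deletion only if they lie in it, so groups are named below by their labels. Markers of cortical cells were present in every library. The 8 excitatory neuron markers summed to 4143 to 5054 CPM in 5XFAD libraries and 3975 to 4546 CPM in the others, and the 20 microglial markers measured summed to 2295 to 3095 CPM and 1938 to 2444 CPM. Library sizes for CPM include edgeR's TMM factors. Reads come only from the 3′ ends of transcripts, so these values do not grow with transcript length.

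*Csf1r* (ENSMUSG00000024621) lies on chromosome 18 at 61229714 to 61266535 on the plus strand of GRCm39. In the 5XFAD libraries it was at 55.2, 78.4, 58.7, 53.9 and 55.4 CPM in replicates 1 to 5, from 247 to 432 counts. In the cKO-labelled libraries it was at 40.0, 38.3, 38.9, 40.7 and 34.5 CPM, from 208 to 296 counts. Every cKO-labelled library was below every 5XFAD library. The means were 38.5 ± 2.43 CPM and 60.3 ± 10.2 CPM (SD, n = 5 each), and replicate 2 of the 5XFAD group stood above the other 4 of its group.

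The log2 fold change of *Csf1r* was -0.65 (SE 0.13, 95% interval -0.91 to -0.39), or 0.638-fold, with an adjusted p of 0.00615 (edgeR's quasi-likelihood test, adjusted by Benjamini-Hochberg over all genes tested). The exact two-sided permutation test over all relabellings of the libraries gave p = 0.00794, the smallest p this design allows. *Csf1r* ranked 22nd of the 19268 genes by p. It was the 1 gene called among the 6, where 0.218% of all genes tested were called, 0.161% lower and 0.0571% higher. *Csf1r* is also on the list of differing genes that the study chose on these same libraries, so this call is not independent evidence. The call rested on replicate 2 of the 5XFAD group: without that library the log2 fold change was -0.54 with an adjusted p of 0.0808, whereas the adjusted p lay between 0.000576 and 0.0414 under 8 other settings that kept all libraries. Without that library the groups did not overlap either (exact permutation test, p = 0.00794). Leaving out a library cannot make separate groups overlap, so this outcome does not bear on the part of replicate 2.

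The spread of *Csf1r* in the 5XFAD group came mostly from replicate 2. The coefficient of variation was 6.31% in the cKO-labelled libraries, where counting error alone gives 6.45%. In the 5XFAD libraries it was 17%, where counting error gives 5.61%, but without replicate 2 it was 3.66%, where counting error gives 5.65%. On the opposite strand *Hmgxb3*, which encodes an HMG-box protein, shares 1461 exon bases with *Csf1r*, of which 272 lie in the last 1000 bases of the *Csf1r* gene. The strand setting of the counting is not given in the sources used here, so how reads in these shared bases were counted is not known. *Hmgxb3* was at 23.5 ± 3.20 CPM and 24.3 ± 5.19 CPM in the cKO-labelled libraries and the 5XFAD libraries (log2 fold change -0.05, adjusted p = 0.985). In 5XFAD replicate 2, the highest library for *Csf1r*, *Hmgxb3* was at 15.0 CPM (64 counts), its lowest value of all 10 libraries. The other 5XFAD libraries held it at 26.1 to 27.3 CPM. The part of the shared bases in the *Csf1r* level of 5XFAD replicate 2 was not tested.

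**Figure D1:**
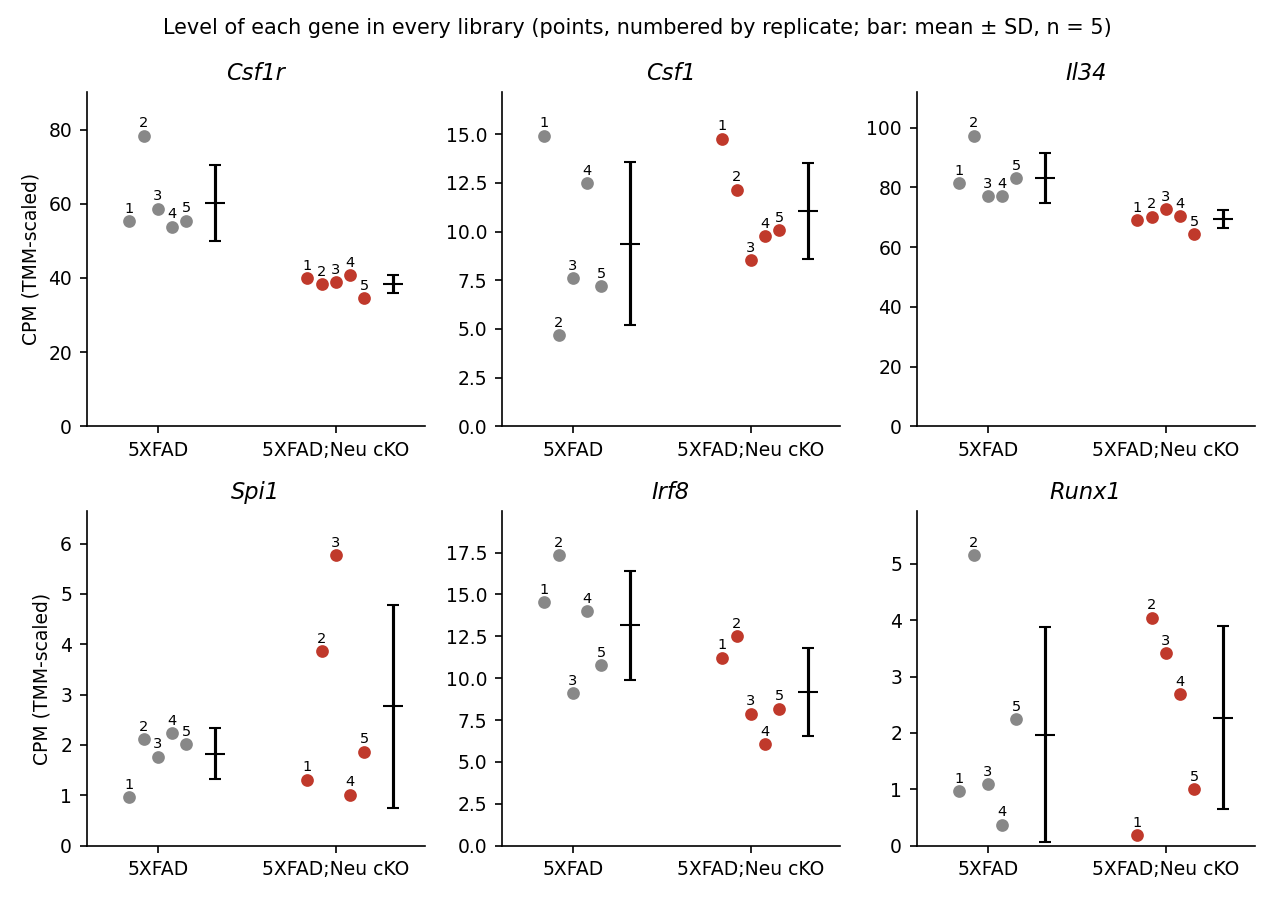
Level of each of the 6 genes in CPM (vertical axis, TMM-scaled, from 0) in every library, with 5XFAD in grey and 5XFAD;Neu cKO in red; points are numbered by replicate and bars give the mean ± SD of 5 libraries. The groups do not overlap for *Csf1r* and *Il34*, and they overlap for *Csf1*, *Spi1*, *Irf8* and *Runx1*.

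*Il34* (ENSMUSG00000031750; chromosome 8, 111423928 to 111532584, minus strand) encodes the neuronal ligand of CSF1R. Its levels were 81.4, 97.4, 77, 77.2 and 83.0 CPM in 5XFAD replicates 1 to 5. In the cKO-labelled libraries they were 69.2, 70.3, 72.7, 70.5 and 64.4 CPM. The lowest 5XFAD library was thus above the highest of the other group, with 370 to 567 counts behind each value. The means were 69.4 ± 3.11 CPM and 83.2 ± 8.35 CPM (SD, n = 5 each).

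The log2 fold change of *Il34* was -0.26 (SE 0.11, 95% interval -0.48 to -0.04), and it did not pass the test across all genes (adjusted p = 0.499). The exact permutation test of this gene alone gave p = 0.00794, or p = 0.0238 with library totals and no normalization factors. *Csf1r* and *Il34* were also the 2 genes of 6 with an unadjusted p under 0.05, beside 7.95% of all genes tested. In TMM-scaled CPM they were the 2 genes of 6 whose groups did not overlap, beside 1.3% of all genes tested and 0.721% that did not overlap and were lower. Replicate 2 of the 5XFAD group was the highest library for *Il34* too. Without it the log2 fold change was -0.20, and over all 10 fits that left out a library it lay between -0.29 and -0.20. *Vac14*, on the opposite strand, shares 100 exon bases with *Il34*, none of them in its last 1000 bases.

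*Csf1* (ENSMUSG00000014599; chromosome 3, 107648364 to 107667806, minus strand) encodes the other ligand. It was at 14.9, 4.69, 7.61, 12.5 and 7.18 CPM in 5XFAD replicates 1 to 5, and at 14.8, 12.1, 8.53, 9.76 and 10.1 CPM in the cKO-labelled libraries. The lowest and the highest value of all 10 libraries were both in the 5XFAD group. The lowest, 20 counts in replicate 2, came from the library that was highest for *Csf1r* and *Il34*. The log2 fold change was 0.23 (SE 0.28, 95% interval -0.34 to 0.79, adjusted p = 0.936), and the exact permutation test gave p = 0.365. Without 5XFAD replicate 2 the estimate was 0.06, and without 5XFAD replicate 1 it was 0.45. The interval over all libraries ends short of the -0.65 of *Csf1r* on its lower side and reaches 0.79 on its upper side.

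**Figure D2:**
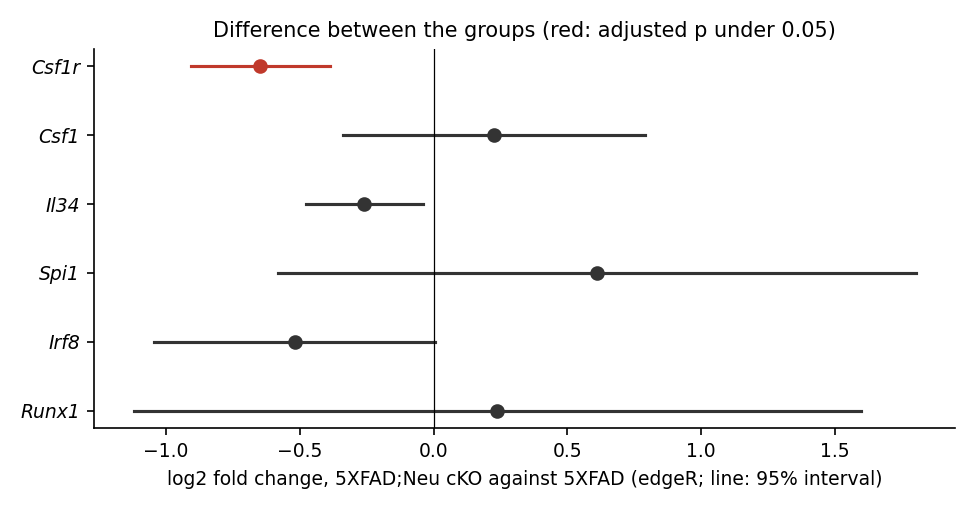
Log2 fold change of each gene, 5XFAD;Neu cKO against 5XFAD (horizontal axis), with its 95% interval from edgeR as a line; red marks an adjusted p under 0.05. The interval of *Csf1r* lies between -0.91 and -0.39, that of *Il34* ends at -0.04, and the intervals of the other 4 genes hold 0.

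Because both ligands act on 1 receptor, ligand reads were also set against *Csf1r* reads within each library, which needs no scaling between libraries. *Il34* gave 1.47, 1.24, 1.31, 1.43 and 1.5 reads per *Csf1r* read in 5XFAD replicates 1 to 5. In the cKO-labelled libraries it gave 1.73, 1.84, 1.87, 1.73 and 1.87. Each of these was above every 5XFAD value. The mean log2 ratio was 0.85 ± 0.06 against 0.47 ± 0.12 (SD, n = 5 each), a difference of 0.38 (exact permutation test, p = 0.00794, adjusted p = 0.0556 over the 7 ratios tested here).

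*Csf1* per *Csf1r* differed by 0.97 in log2 ratio, higher in the cKO-labelled libraries, with means of -1.82 ± 0.30 and -2.79 ± 0.86 (SD, n = 5 each; exact permutation test, p = 0.0397, adjusted p = 0.0926). These values overlapped between the groups. The difference missed a p of 0.05 in 5 of the 10 comparisons that left out a library, with p up to 0.0873 without replicate 1 of the cKO-labelled group. *Csf1* per *Il34* differed by 0.59 (exact permutation test, p = 0.159, adjusted p = 0.278), by 0.31 without 5XFAD replicate 2 and by 0.79 without 5XFAD replicate 1. A ratio of reads from different genes is no ratio of molecules, and only its difference between the groups was compared. A ratio to *Csf1r* rises for any gene that was lowered less than *Csf1r*. The ratios to *Csf1r* thus mostly restate the fold changes above, and their p-values are no separate evidence.

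**Figure D3:**
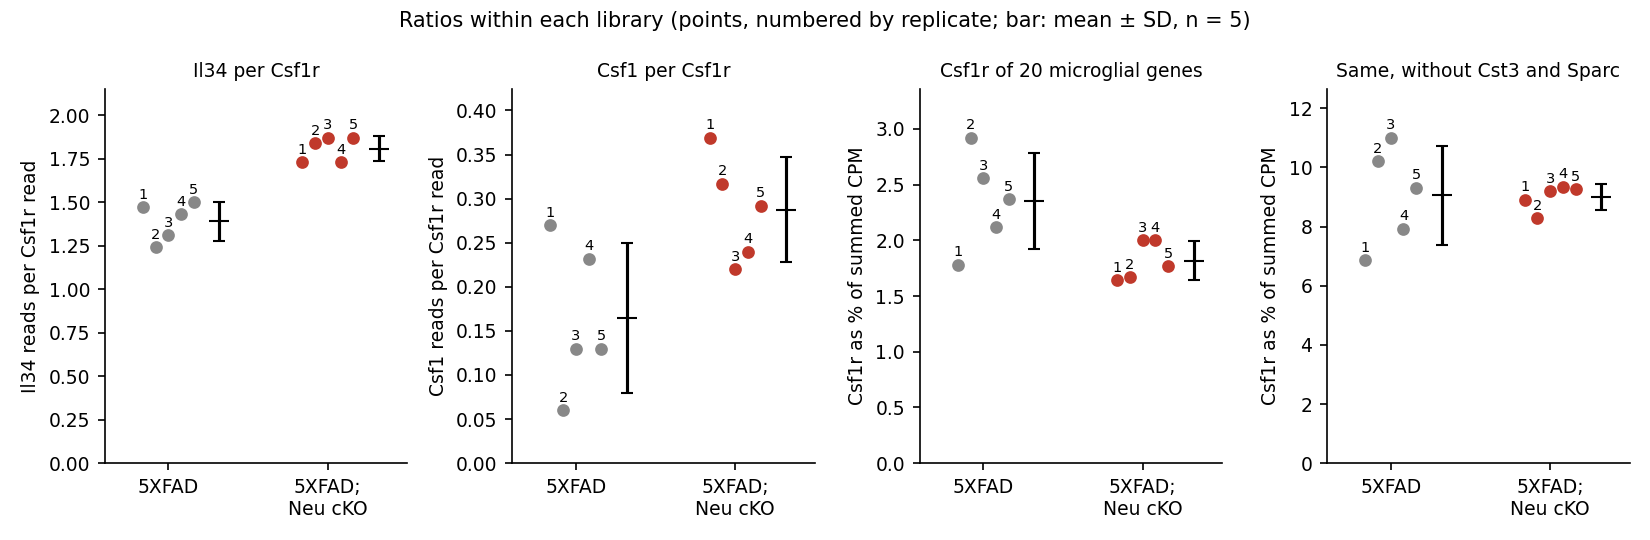
Ratios within each library (points numbered by replicate, 5XFAD in grey, 5XFAD;Neu cKO in red, bars mean ± SD of 5 libraries, axes from 0): *Il34* and *Csf1* reads per *Csf1r* read, and *Csf1r* as a percentage of the summed CPM of 20 microglial genes, with and without *Cst3* and *Sparc*. *Il34* per *Csf1r* separates the groups, and the last panel has means of 9.05% and 9%.

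*Irf8* (ENSMUSG00000041515; chromosome 8, 121463096 to 121485659, plus strand) encodes the partner of PU.1 at many myeloid genes. It was at 14.5, 17.4, 9.10, 14 and 10.8 CPM in 5XFAD replicates 1 to 5 and at 11.2, 12.5, 7.88, 6.06 and 8.19 CPM in the cKO-labelled libraries. The groups overlapped, though 3 of the 5 cKO-labelled libraries were below the lowest 5XFAD library. The log2 fold change was -0.52 (SE 0.26, 95% interval -1.04 to 0.007), with p = 0.0528 before and 0.638 after adjustment over all genes in edgeR, and p = 0.0794 in the exact permutation test. The estimate was close to that of *Csf1r* in size, but it rested on 36 to 75 counts per library and its standard error was 0.26 against 0.13. No gene of the annotation overlaps *Irf8*.

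*Spi1* (ENSMUSG00000002111; chromosome 2, 90912562 to 90946101, plus strand) had 5, 9, 13, 12 and 9 counts in 5XFAD replicates 1 to 5, or 0.969, 2.11, 1.77, 2.24 and 2.02 CPM. In the cKO-labelled libraries it had 7, 21, 44, 6 and 13 counts, or 1.31, 3.86, 5.78, 1.01 and 1.87 CPM. Replicates 2 and 3 of that group were above all other libraries, and its other replicates lay within the 5XFAD range. The log2 fold change was 0.61 (SE 0.59, 95% interval -0.58 to 1.80, adjusted p = 0.897; exact permutation test, p = 0.476). Without replicate 3 of the cKO-labelled group it was 0.14. With a standard error of 0.59, a difference as small as that of *Csf1r* was not detectable for *Spi1* in these libraries. Its coefficient of variation was 73% in the cKO-labelled libraries, where counting error gives 23.4%.

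*Runx1* (ENSMUSG00000022952; chromosome 16, 92398354 to 92623037, minus strand) was as sparse, at 0.969, 5.16, 1.09, 0.373 and 2.24 CPM in 5XFAD replicates 1 to 5, from 2 to 22 counts. In the cKO-labelled libraries it was at 0.187, 4.05, 3.41, 2.69 and 1.01 CPM, from 1 to 26 counts. Libraries of both groups were spread over nearly the whole range. The log2 fold change was 0.24 (SE 0.68, 95% interval -1.12 to 1.6, adjusted p = 0.982; exact permutation test, p = 0.81), and it moved from -0.07 to 0.97 as single libraries were left out, being highest without replicate 2 of the 5XFAD group.

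Over the 6 genes, 3 estimates were lower and 3 higher, with a median log2 fold change of -0.02 beside -0.001 over all genes tested. The lower ones were those of *Csf1r*, *Il34* and *Irf8*. In 5XFAD replicate 2 the levels of *Csf1r*, *Il34*, *Irf8* and *Runx1* were each the highest of the group and that of *Csf1* the lowest. That library also had the lowest normalization factor of its group, at 0.908. The factors were 0.908 to 1.03 in the 5XFAD libraries and 0.972 to 1.06 in the cKO-labelled libraries, so they tended to be higher in the latter. With library totals and no factors the log2 fold change was -0.555 for *Csf1r* and -0.169 for *Il34*. The part of library scaling in these levels was not tested beyond the alternatives given here.

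Motifs of these factors were looked for in promoter windows of 300 bases (250 before to 50 after the start) from RefSeq on GRCm38.p6, an earlier build than that of the counts. The table held 1 window for *Csf1*, 2 for *Irf8* and 2 for *Runx1*. Entries for *Csf1r*, *Il34* and *Spi1* were not matched. Searched on both strands were the PU.1 core GAGGAA, the RUNX core TGTGGT, the composite ETS-IRF element and the IRF repeat, which 28.3%, 16.8%, 2.72% and 3.44% of all 32851 windows hold. The composite element and the IRF repeat can overlap each other. The windows of *Csf1* and *Irf8* held no match. Those of *Runx1* held 2 RUNX cores in window 1 and 1 PU.1 core in window 2. These stretches are shown because they are the only matches in the 5 windows searched, with the matched letters in capitals. They are written 5′ to 3′ on the minus strand, the strand of the gene, so that each match reads as the reverse complement of the motif as spelled above.
Runx1 window 1, chr16:92826025-92826054: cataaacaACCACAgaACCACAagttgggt
Runx1 window 2, chr16:92697350-92697395: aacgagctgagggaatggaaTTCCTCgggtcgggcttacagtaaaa
Counted from the transcription start site, the RUNX cores lie at bases 29 to 34 and 37 to 42 after it in window 1. The PU.1 core lies 46 to 41 bases before the transcription start site in window 2. A match is a string of letters and no measured binding.

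*Csf1r* was next set against other microglial genes. All 20 genes measured of the microglia list, which does not hold *Csf1r*, had a lower estimate in the cKO-labelled libraries. Over all genes 9651 estimates were lower and 9617 higher. Of the 20 genes 7 passed the test, where 0.218% of all genes tested were called and 0.161% were called lower. The median log2 fold change of the list was -0.59. The 7 genes, named after their values were seen, were *Cx3cr1*, *Sparc*, *Tyrobp*, *C1qb*, *C1qc*, *Ctss* and *Laptm5*, of which 6 are on the study's own list. The estimate for *Csf1r* was thus close to the median of the list.

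As a percentage of the summed CPM of the 20 genes, *Csf1r* was at 1.82 ± 0.177% in the cKO-labelled libraries and at 2.35 ± 0.429% in the 5XFAD libraries (SD, n = 5 each). The log2 difference was -0.36 (exact permutation test, p = 0.0317, adjusted p = 0.0926 over the 7 ratios), and the values overlapped. This sum is mostly 1 gene: *Cst3*, which encodes cystatin C and is also expressed by astrocytes, gave 67.9% of it and *Sparc* 9.06%. Without these genes *Csf1r* was at 9 ± 0.434% and 9.05 ± 1.66% of the sum, a log2 difference of 0.011 (exact permutation test, p = 0.929), and against the mean log2 CPM of all 20 genes the difference was -0.04 (p = 0.77, same test). Against the summed CPM of the list without the genes of the study's own list, which still holds *Cst3*, it was -0.47 (p = 0.0238, exact permutation test). *Irf8* differed by -0.25 relative to the whole sum (p = 0.23) and by 0.12 without *Cst3* and *Sparc* (p = 0.548, exact permutation tests). Against the whole sum, the difference of *Csf1r* missed a p of 0.05 in 5 of the 10 comparisons that left out a library. These exact permutation tests gave p = 0.0714 without 5XFAD replicate 2 and p = 0.0556 without 5XFAD replicate 3 or cKO-labelled replicate 1, 2 or 5.

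The genes with profiles most like that of *Csf1r* over the 10 libraries were found among 8840 genes of at least 10 CPM, by the root mean square difference of log2 CPM after each gene was centred on its own mean. They were *Cx3cr1*, the fractalkine receptor of microglia, at 0.119, *Selplg*, which encodes a selectin ligand, at 0.133, *Sptlc1*, a subunit of serine palmitoyltransferase, at 0.135, *Ctsd*, the lysosomal protease cathepsin D, at 0.136, and *Cavin1*, a coat protein of caveolae, at 0.145. The median over all candidates was 0.416. *Cx3cr1* was at 74.7 to 114.7 CPM in 5XFAD libraries and 60.5 to 65.1 CPM in the cKO-labelled libraries, with its highest value, like that of *Csf1r*, in 5XFAD replicate 2. *Ctsd* had the log2 fold change of lowest adjusted p of these, -0.69 at 5.24e-07, and *Cx3cr1* passed too (-0.51, adjusted p = 0.0232). *Selplg* (-0.69, adjusted p = 0.0763), *Sptlc1* (adjusted p = 0.0994) and *Cavin1* (-0.39, adjusted p = 0.614) did not. The 10 points share libraries and scaling, and a gene that differs between the groups is near *Csf1r* in part for that reason.

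**Figure D4:**
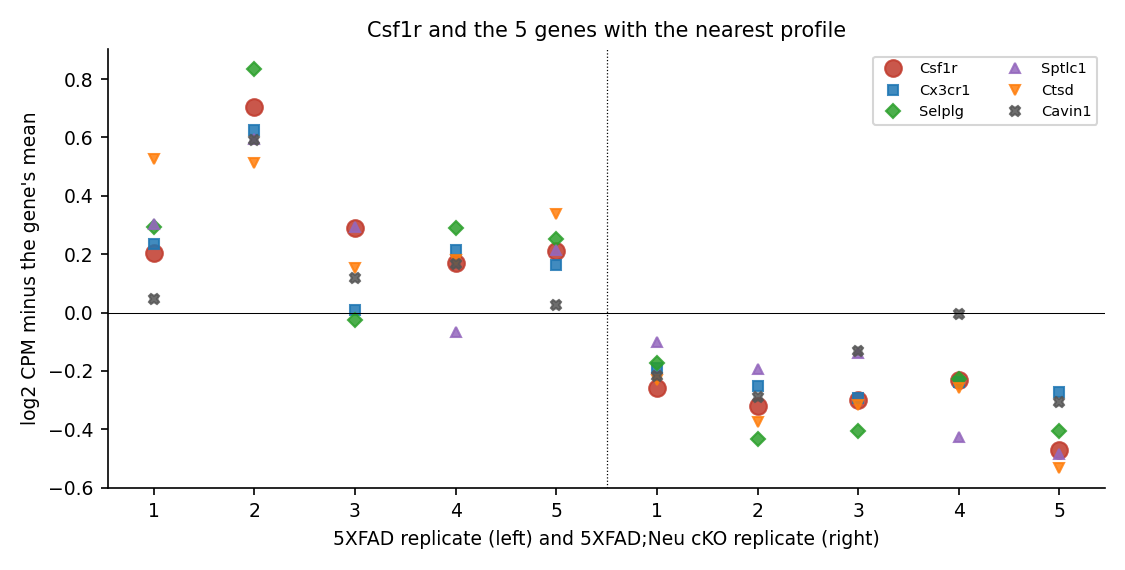
Log2 CPM minus the gene's own mean (vertical axis) in each library (horizontal axis, 5XFAD replicates on the left, 5XFAD;Neu cKO replicates on the right) for *Csf1r* and the 5 genes with the nearest profile. All 6 genes are highest in 5XFAD replicate 2 except *Ctsd*, and *Csf1r* is below 0 in all 5 libraries on the right.

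Genes around the receptor were described by lists. Of the related receptor tyrosine kinases and their ligands (*Kit*, *Flt3*, the PDGF receptors and their ligands), 8 were tested, 4 estimates were lower and 4 higher, none passed, and the median was 0.001. The smallest p was that of *Kitl*, the ligand of KIT, at 49.4 ± 5.94 CPM in the cKO-labelled libraries and 40.1 ± 6.27 CPM in the 5XFAD libraries (log2 fold change 0.30, SE 0.14, adjusted p = 0.566). Of the other colony-stimulating factors and their receptors, *Csf2*, *Csf3* and *Il3* had no count in any library. The 4 receptor genes tested gave 3 lower and 1 higher, and the smallest p among them was that of *Il3ra*, the IL-3 receptor alpha chain, with 14 counts in all (adjusted p = 0.918).

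Other partners of IL-34 and the proteases that shed CSF1R or CSF1 gave 3 lower and 2 higher estimates and no call (median -0.18). *Trem2*, a microglial receptor of lipids that is a described partner of IL-34, had the smallest p: it was at 8.09 ± 2.56 CPM in the cKO-labelled libraries and 15.7 ± 2.33 CPM in the 5XFAD libraries with no overlap, but did not pass (log2 fold change -0.96, SE 0.25, adjusted p = 0.0994). Adaptors, kinases and phosphatases downstream of CSF1R gave 20 lower and 11 higher among the 31 tested, with a median of -0.06. The call among them was *Tyrobp*, the adaptor DAP12 of microglial receptors, at 16.8 ± 4.21 CPM against 35.9 ± 10.8 CPM with no overlap (log2 fold change -1.10, SE 0.19, adjusted p = 0.000564). It is on the study's own list as well, and like *Trem2* it is also a gene of the microglia list.

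Other transcription factors of microglia and macrophages gave 10 lower and 7 higher among 17 tested, none past the threshold, with a median of -0.02. *Bhlhe40*, which represses genes in macrophages and is also expressed in neurons, had the smallest p, at 46.3 ± 12.5 CPM in the cKO-labelled libraries and 28.9 ± 8.86 CPM in the 5XFAD libraries (log2 fold change 0.67, SE 0.17, adjusted p = 0.0784). Relatives of the 3 factors did not pass either. The ETS relatives of *Spi1* gave 7 lower and 5 higher (smallest p *Elf1*, log2 fold change -0.66, adjusted p = 0.625), and the IRF relatives of *Irf8* gave 5 lower and 3 higher (smallest p *Irf5*, adjusted p = 0.627). The RUNX relatives and partners of *Runx1* gave 3 of each (smallest p *Cbfa2t3*, a corepressor, log2 fold change -0.26, adjusted p = 0.677).

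Macrophage genes known to need PU.1 or IRF8 gave 11 lower and 3 higher estimates among 14, with a median of -0.51 and no call. *Lyz2*, the macrophage lysozyme, had the smallest p, at 9.99 ± 2.10 CPM in the cKO-labelled libraries and 16.6 ± 4.94 CPM in the 5XFAD libraries, without overlap (SE 0.24, adjusted p = 0.33). It has a near-identical paralog, *Lyz1*, and how reads common to both were counted was not examined. *Aif1* and *Itgam* are on this list and on the microglia list. *Irf5* is likewise on the list of IRF relatives and on that of other transcription factors.

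**Figure D5:**
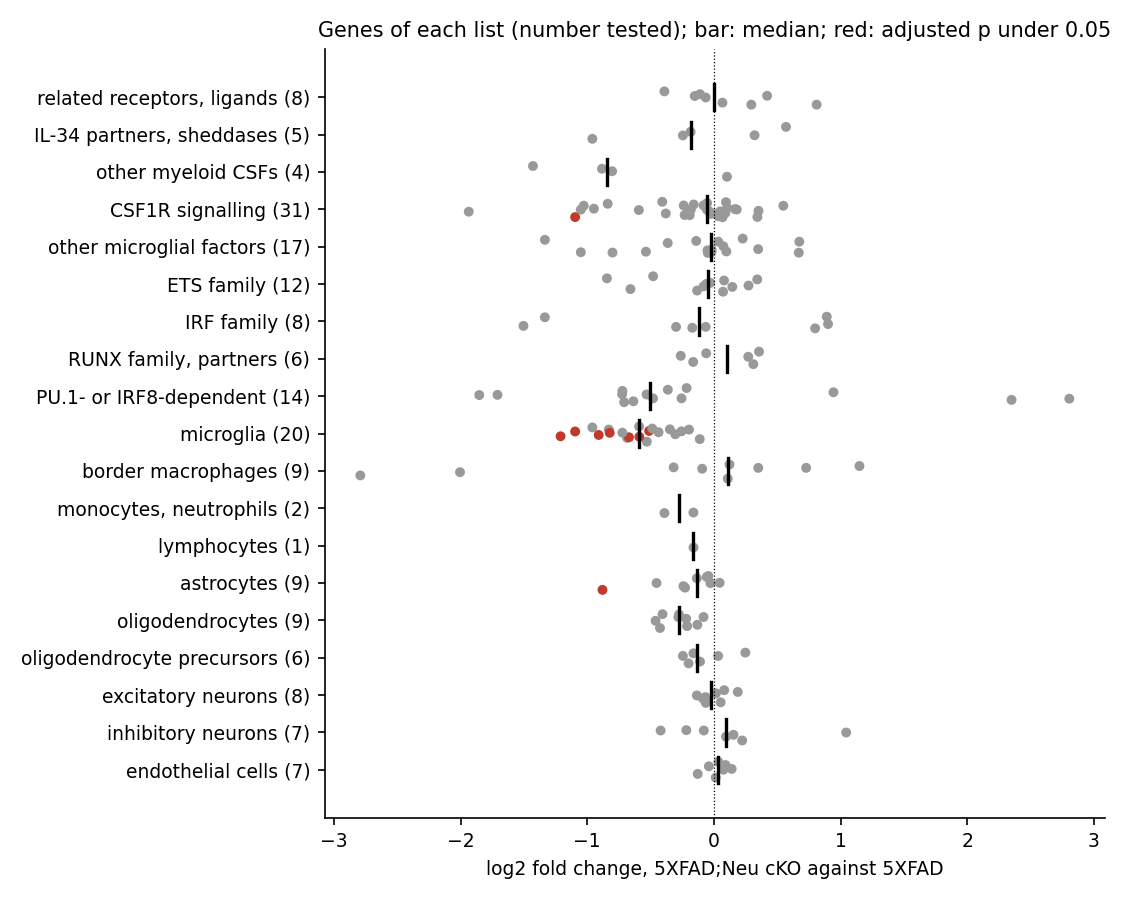
Log2 fold change, 5XFAD;Neu cKO against 5XFAD (horizontal axis), of every tested gene of each list (vertical axis, number tested in brackets), with the list's median as a bar and genes with an adjusted p under 0.05 in red. The microglia list holds 7 of the red points and lies wholly below 0. *Tyrobp* is a red point of the microglia list and of the CSF1R signalling list.

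Lists of other cells that could carry these genes were measured beside them. Border-associated macrophages, which also use CSF1R, gave 4 lower and 5 higher among 9 (median 0.11) and summed to 12 to 22.6 CPM in 5XFAD libraries and 13.7 to 25.6 CPM in the others. Of 8 monocyte and neutrophil markers 2 had counts enough to test, with the whole list summing to at most 2.85 CPM in any library, and *Camp* was at 0 throughout. Of 8 lymphocyte markers only *Cd4* could be tested, which microglia and macrophages can express too, and *Cd3d*, *Cd3g* and *Cd79a* were at 0. Astrocyte markers gave 8 lower and 1 higher (median -0.14). The 1 call among them was *Gfap*, a marker of reactive astrocytes, at 24.1 ± 5.71 CPM in the cKO-labelled libraries and 44.5 ± 10.4 CPM in the 5XFAD libraries, without overlap (log2 fold change -0.88, adjusted p = 0.00202), and it is on the study's own list as well. For oligodendrocyte markers 9 estimates were lower and none higher, with no call (median -0.28). Oligodendrocyte precursor markers gave 4 lower and 2 higher (median -0.14). Excitatory neuron markers gave 4 of each (median -0.02), inhibitory neuron markers 3 lower and 4 higher (median 0.10), and endothelial markers 2 lower and 5 higher (median 0.04). The summed level of every one of these lists overlapped between the groups, and their part in the values of *Csf1r* and *Il34* was not tested.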

How the data were processed

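QuantSeq 3′ libraries of cortex were made from 5 mice per group. After trimming, the authors aligned the reads to GRCm39 with STAR 2.7.3a and counted them per gene with HTSeq, for which the submitters' processing notes give 0.9.1 and the study's methods a later version. The deposited values are raw counts, with no normalization. The strand setting is not given in the sources used here. Symbols came from GENCODE for 52610 of 53700 identifiers. The 5 summary entries that name no gene were left out.

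The groups were compared by the quasi-likelihood test of edgeR 4.0.16 (R 4.3.3), with TMM factors and no covariate. Only genes with over 10 counts in all entered, and p-values were adjusted by Benjamini-Hochberg over 19268 genes at a threshold of 0.05. Single levels used exact two-sided permutation tests of log2 CPM with a prior count of 2 over all relabellings. Ratios of CPM used the same test on their log2 values, without a prior count. The members, the 19 lists and the tests were chosen with earlier results of these data known. Named genes are the 6 members, *Mylip*, overlapping genes, genes of the pathway lists that passed or otherwise had the smallest p, and the 5 genes nearest to *Csf1r*. *Hmgxb3*, *Vac14*, *Cst3*, *Sparc*, *Gfap* and the markers named in cell type lists were named after their values were seen. Alternatives were DESeq2 1.42.0, its size factors, other filters, a robust fit, no mitochondrial genes, no normalization factors, a replicate block and leaving out each library. The steps were tested on simulated data.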

Additional observations from a re-analysis of the deposited data

Results flagged for a closer look

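Groups of 5 libraries were searched for a library whose distance to its nearest neighbour was over 0.71 of the group's range, for the levels and ratios of the 6 genes. Of 26 groups examined, 2 held such a library, and chance flags about 1 in 20. *Csf1r* in 5XFAD replicate 2 was at 78.4 CPM, where the next library was at 58.7 CPM, a gap of 0.804 of the range. *Spi1* in 5XFAD replicate 1 was at 0.0313% of the summed CPM of the microglia list, where the next was at 0.0769%, also 0.804 of the range, and this low share came from 5 counts.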

How the results depend on the processing

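With all libraries kept, *Csf1r* passed the threshold under all 8 other settings and was the only gene of the 6 to do so. It was lost in 1 of the 10 fits that left out a library, where the number of the 6 genes past the threshold ranged from 0 (without 5XFAD replicate 2) to 1, and its log2 fold change from -0.69 to -0.54. The count of all genes called, 42 in the report, was 73 with DESeq2, 103 with no filter on low counts and 112 with the replicate number as a block, and 26 to 72 as single libraries were left out. With library totals and no normalization factors, added after seeing the data, 52 genes were called, 20 of them lower instead of 31 of 42, and the median of all genes shifted to 0.09, so directions are relative to that shift.

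Relative to the microglia list, *Csf1r* differed by -0.45 to -0.28 as libraries were left out, by -0.475 without the genes of the study's own list, by -0.038 against the mean log2 CPM of the list and by 0.011 without *Cst3* and *Sparc*, a choice made after seeing the data. *Irf8* turned to 0.08 and 0.12 under the last 2 of these choices. *Runx1* changed sign as libraries were left out, with a log2 fold change of -0.065 to 0.97, a difference of mean log2 CPM of -0.15 to 0.67 and a difference relative to the list of -0.057 to 1.20. *Csf1* per *Csf1r* ranged from 0.65 to 1.19, *Csf1* per *Il34* from 0.31 to 0.79 and the log2 fold change of *Csf1* from 0.06 to 0.45. The cause of these changes was not tested.

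Correlations gave no sign that the replicate numbers pair the libraries. Same-numbered libraries had correlations of -0.078 to 0.054 in their deviations from the group means, and no library matched its own number best. These correlations cannot exclude a pairing, and with the replicate block 112 genes were called instead of 42. With the replicate block the log2 fold change of *Csf1r* was -0.64 (adjusted p = 0.00137), and the number of the 6 genes past the threshold was 1. *Spi1* and *Runx1* had 1 to 44 counts per library. Their spread in the cKO-labelled libraries, 73% and 71.7%, was wider than the 23.4% and 26.4% that counting error gives. DESeq2 gave no adjusted p for *Csf1*, *Spi1*, *Irf8* and *Runx1*.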
